A study of Homo sapiens with 6 samples.

Results

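IMR32 cells grown without lymphocytes showed which gene knockouts were rare and which were frequent in a pooled CRISPR screen of a neuroblastoma line. Their 2 libraries, of 6 in the series, hold guide RNA (gRNA) read values from genomic DNA and were chosen by their sample labels. IMR32 is a human neuroblastoma cell line with amplification of MYCN, labelled here as Cas9+, and every library came from these cells after transduction with the Brunello gRNA library. The other 4 libraries, used below only for comparison, are 2 of the same cells in coculture with CD14-depleted lymphocytes from blood donors and 2 of such cocultures with 10 µg/ml of nivolumab, a clinical antibody against the T cell checkpoint PD-1. All were harvested on day 5 as adherent cells, and each condition has replicates 1 and 2, taken from screens with different lymphocyte donors and, per the methods, at a high or a low ratio of lymphocytes to cancer cells. The Cas9 cells were a sorted, stably transduced population, and the methods state that they were transduced with the gRNA library in duplicate. Whether both transductions grew for the same time before harvest is not given in the sources used here. Genomic DNA holds no marker transcripts, so the identity of the cells could not be checked against expressed genes.

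In such a pool each cell carries 1 gRNA in most cases, and Cas9 cuts the matching gene. If cells without that gene divide less or die, their gRNAs become rarer in the DNA at harvest, and if losing the gene lets cells outgrow the others their gRNAs become more frequent. Genes of protein synthesis, splicing, DNA replication and mitosis are known to be needed in nearly every dividing human cell, while MYCN-amplified neuroblastoma cells are known to lean in addition on a core circuit of adrenergic transcription factors. The starting gRNA library was not among the libraries analysed here. A gRNA that was scarce in the virus from the outset therefore cannot be told apart from one that was lost during growth, and every level below is an abundance at harvest.

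The files list 77441 gRNAs for 19364 features. Of these features 19114 are genes, 19107 of them with 4 gRNAs each, and the other 250 are sets of 4 gRNAs named CON with a running number, whose nature the files do not state. The values of IMR32 alone are whole multiples of a step, which amount to 62455813 reads in replicate 1 and 67911670 in replicate 2. The median gRNA had 773 and 826 reads in them, so that counting alone gives a standard error of 0.0519 and 0.0502 on the log2 scale. At 0 reads were 35 gRNAs in replicate 1 and 36 in replicate 2, and 25 of them were at 0 in both.

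The level of a gene in a library is the median over its gRNAs of log2 of the normalized reads plus 1, divided by the median of all gRNAs against olfactory receptor genes plus 1. Olfactory receptors detect odours in the nose and served as a neutral family of 374 genes with 1496 gRNAs. A level of 0 thus means as frequent as the median olfactory receptor gRNA, which had 989 normalized reads in replicate 1 and 986 in replicate 2, and a level of -1 means 0.5 times as frequent. A gene is called rare when its level was at or under -1 in both libraries. No test of fitness exists without a starting library, so these calls are counts and not significance calls.

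Across the 19114 genes the median level was -0.21 in replicate 1 and -0.22 in replicate 2, below the olfactory receptors. The 250 CON sets lay on the other side, at 0.24 and 0.39. In replicate 1, 89.2% of the genes lay below the CON median, and in replicate 2 94.1% did. Of the olfactory receptor genes themselves 78.1% and 86.1% lay below it. Gene levels of the 2 libraries correlated across genes at a Pearson r of 0.920, given as a description over 19114 genes that share libraries and gRNA pools. The difference between the replicates had an SD of 0.202 and exceeded 0.402 in size for 5% of the genes.

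Rare in both libraries were 1157 genes, which is 6.05% of all genes. The same call took 9 of 374 olfactory receptors (2.41%) and 1 of 250 CON sets (0.4%). The distribution was lopsided, since 0 genes (0%) reached a level of 1 in both libraries. Only at a level of 0.5 did genes appear on the frequent side, 255 of them in both libraries, or 1.33%. Among the rare genes 82 had all 4 gRNAs at or under -1 in both libraries, 449 had 3 such gRNAs, 608 had 2 and 18 had 1. At or under -2 in both libraries were 35 genes.

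**Figure D1:**
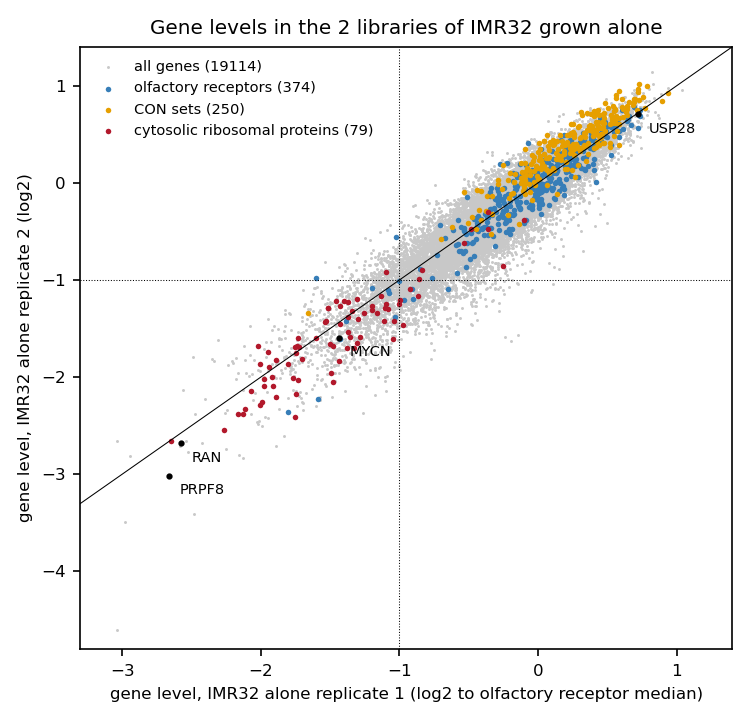
Each point is a gene level (log2 relative to the olfactory receptor median), with replicate 1 of IMR32 alone on the horizontal and replicate 2 on the vertical axis, the diagonal marking equal levels and the dotted lines the level of -1. The ribosomal proteins (red) reach down to -2.64 and -2.66 for RPL13, the olfactory receptors (blue) centre on 0 and the CON sets (orange) sit at the upper right, at medians of 0.24 and 0.39.

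The 15 genes with the lowest mean level were a mixture. From the housekeeping lists described below came PRPF8, the central protein of the spliceosome, at -2.66 in replicate 1 and -3.01 in replicate 2, RPL13 of the large ribosomal subunit at -2.64 and -2.66, and RAN, the small GTPase that drives nuclear transport, at -2.57 and -2.68. Their gRNAs were rare with little exception. PRPF8 gRNAs had 361, 156, 38 and 154 normalized reads in replicate 1 and 349, 85, 59 and 174 in replicate 2. RPL13 gRNAs had 135, 407, 173 and 143 reads in replicate 1 and 134, 250, 165 and 146 in replicate 2. Those of RAN had 166, 145, 164 and 517 in replicate 1 and 127, 186, 126 and 208 in replicate 2.

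Other genes among the 15 lowest rested on fewer gRNAs. C9orf139 was lowest of all, at -3.04 and -4.61, with gRNAs of 1170, 208, 69 and 47 normalized reads in replicate 1 and 1093, 267, 5 and 4 in replicate 2, so 1 of its 4 gRNAs was as frequent as an olfactory receptor gRNA. Its mean level was -0.93 once gRNAs under 50 normalized reads were left out. This filter removes gRNAs for being rare, so it shows which gRNAs carry a level and not whether the level is sound. CEP131, a centrosome protein, was at -2.58 and -2.71 with gRNAs of 34, 33, 870 and 772 reads in replicate 1 and 3, 36, 882 and 622 in replicate 2. VSTM4 (-2.52, -2.77) and HGSNAT (-2.54, -2.65) were split in the same way, with 2 gRNAs rare and 2 near the median. Under the same filter CEP131 was at -0.34, VSTM4 at -0.29 and HGSNAT at -0.12, while the other 11 genes stayed at or under -2.48. Of the 15, 6 had all 4 gRNAs rare in both libraries, 6 had 3 and 3 had 2. The other members were NPIPA1 (-2.98, -3.49) and USP17L26 (-2.25, -2.74), whose symbols belong to families of near-identical copies, along with LOC653602 (-2.94, -2.81), MYEOV2 (-2.48, -3.41), C20orf78 (-3.04, -2.65), SYS1 (-2.66, -3.01), FAM84A (-2.42, -2.68) and CTU2 (-2.16, -2.81), which acts in tRNA wobble base modification.

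Protein synthesis held the rarest gene classes. Of 47 proteins of the large cytosolic ribosomal subunit 40 were rare, against 6.05% of all genes, with a median level of -1.48 in replicate 1 and -1.53 in replicate 2. Of 32 proteins of the small subunit 26 were rare, with medians of -1.40 and -1.62. RPS6 was the lowest of the small subunit, at -2.16 and -2.38. The highest ribosomal proteins were RPL36A at -0.10 and -0.39 and RPS25, which lies at the surface of the small subunit, at -0.25 and -0.86. All 4 gRNAs were rare in both libraries for 8 proteins of the large and 12 of the small subunit, together 20 of the 82 genes of that kind.

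The factors that build and run ribosomes were less rare than ribosomal proteins. Ribosome assembly factors and RNA polymerase I, which makes ribosomal RNA, had medians of -0.96 and -1.14 with 22 of 58 rare. The lowest was POLR1C, a subunit of RNA polymerases I and III, at -1.70 and -2.34, and the highest POLR1D at 0.26 and -0.08. Translation initiation and elongation factors had medians of -0.88 and -1.12 with 15 of 40 rare. Among them EIF3D, a cap-binding subunit of the EIF3 complex, was at -2.48 and -2.38 with gRNAs of 117, 514, 269 and 102 normalized reads in replicate 1 and 137, 476, 259 and 81 in replicate 2, while EIF3K of the same complex was at 0.21 and 0.05. The 13 EIF3 subunits thus spanned the range of the list, with a median of -0.82 and -1.0. Cytosolic aminoacyl-tRNA synthetases, which load amino acids onto tRNAs, had medians of -0.96 and -1.12 with 6 of 20 rare, from IARS at -1.84 and -1.72 to WARS at -0.36 and -0.56.

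Transcription and RNA processing followed. In the core spliceosome 37 of 66 genes were rare, with medians of -1.08 and -1.16. SNRPB2, a protein of the U2 particle, was highest at 0.61 and 0.79. The RNA exosome, which degrades RNA from its 3′ end, had medians of -0.93 and -1.24 with 5 of 12 rare, and its helicase cofactor SKIV2L2 was at -1.97 and -2.41 against -0.05 and -0.57 for EXOSC5. RNA polymerases II and III had 7 of 21 rare (medians -0.85 and -1.15), led by POLR2B, the second largest subunit of RNA polymerase II, at -1.71 and -1.66, with POLR2K highest at -0.07 and -0.37. The factors of mRNA 3′ end processing and export had 6 of 28 rare (medians -0.82 and -0.87), from THOC3 at -1.56 and -2.02 to CSTF2 at 0.10 and 0.18. The Mediator complex, which links transcription factors to RNA polymerase II, had 5 of 28 rare with medians of -0.67 and -0.86, from MED11 at -1.49 and -1.84 to MED24 at 0.41 and 0.17.

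Protein degradation was among the rarest groups. Of 33 subunits of the proteasome 24 were rare, with medians of -1.18 and -1.33. The ring subunits PSMB1 to PSMB7, which include the proteolytic sites, were rare in 7 of 7 cases, with PSMB3 lowest at -1.88 and -1.84. The ATPases PSMC1 to PSMC6 were rare in 6 of 6 cases, while the ubiquitin receptor ADRM1 was highest at -0.42 and -0.18. Enzymes of the ubiquitin, NEDD8 and SUMO systems had 5 of 31 rare and medians of -0.63 and -1.0, from the segregase VCP at -1.76 and -1.82 to CUL4B at 0.27 and 0.27. The CCT chaperonin, which folds actin and tubulin, had 3 of 8 subunits rare with medians of -0.90 and -0.92. CCT7 was at -1.06 and -1.72, whereas CCT8 of the same ring was at 0.01 and 0.13.

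**Figure D2:**
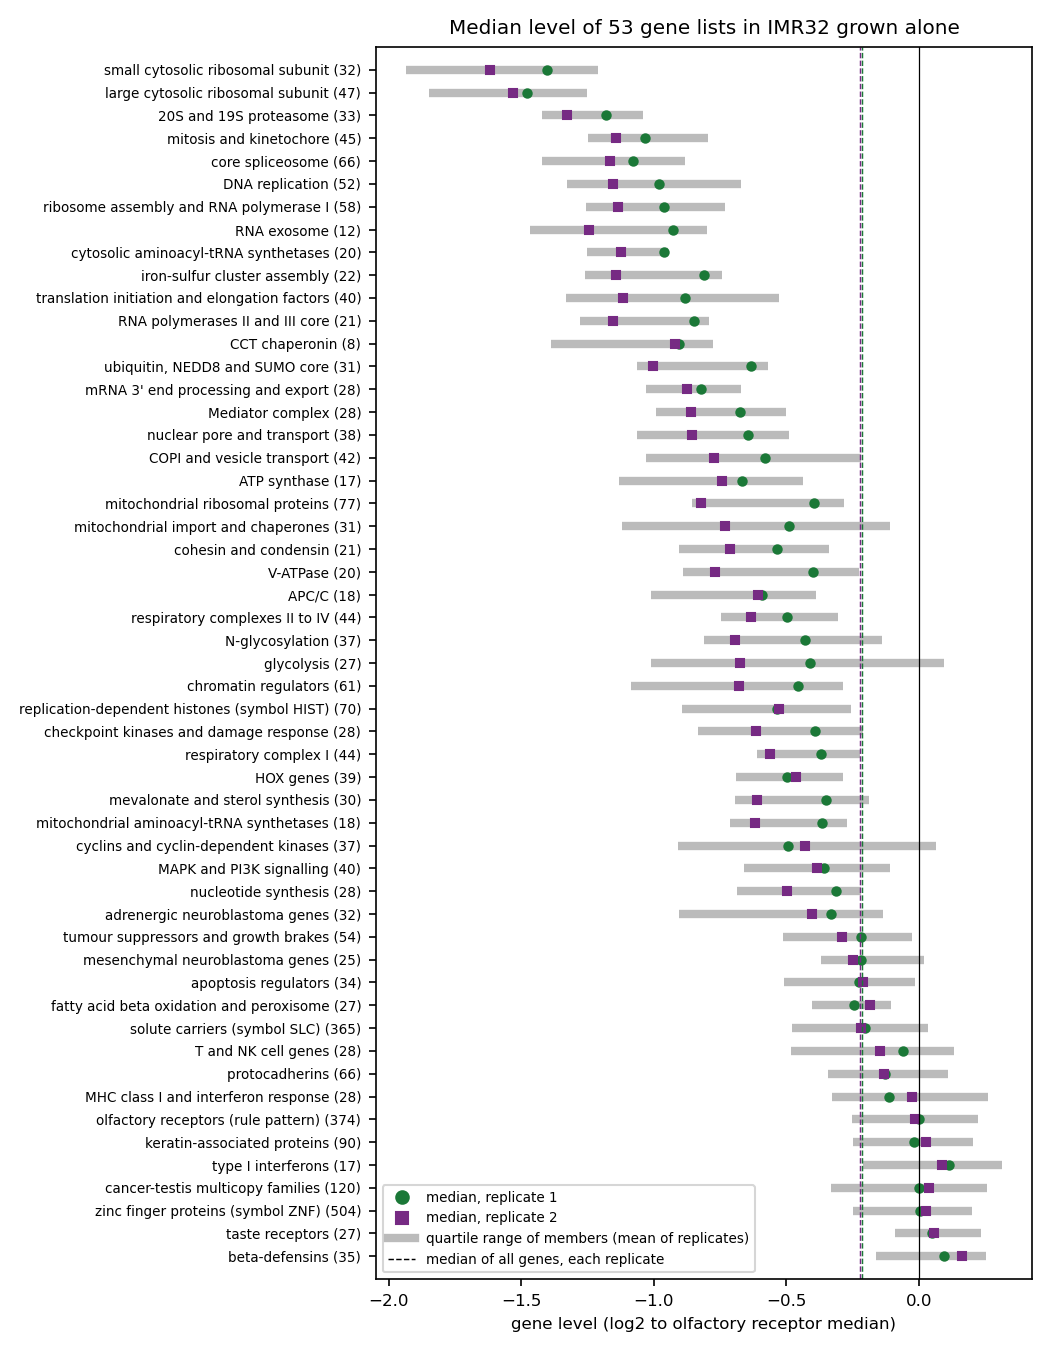
Circles (replicate 1) and squares (replicate 2) give the median level of each gene list in IMR32 alone, grey bars the range between the quartiles of its members by the mean of both replicates, and dashed lines the median of all genes, with the number of members in parentheses. The ribosomal subunits and the proteasome are farthest to the left, at medians of -1.18 to -1.62. Farthest to the right are the type I interferons in replicate 1, at 0.11, and the beta-defensins in replicate 2, at 0.16.

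Of 136 genes of cell division in 4 lists 53 were rare. Mitosis and kinetochore genes had medians of -1.03 and -1.14 with 22 of 45 rare. The lowest was CENPA, the histone variant that marks centromeres, at -1.89 and -2.71, and the highest the checkpoint protein MAD1L1 at -0.12 and -0.32. DNA replication genes had medians of -0.98 and -1.15 with 23 of 52 rare, from the licensing factor CDT1 at -2.05 and -2.24 to the topoisomerase TOP1 at 0.11 and -0.19. The subunits of the APC/C, the ubiquitin ligase that ends mitosis, were closer to neutral with 4 of 18 rare (medians -0.59 and -0.61), from its activator CDC20 at -1.16 and -1.47 to ANAPC15 at -0.07 and 0.05. Cohesin and condensin had 4 of 21 rare (medians -0.54 and -0.71), with the condensin ATPase SMC2 at -1.88 and -1.85 and STAG1, for which STAG2 can substitute, at 0.27 and 0.31.

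Cyclins and their kinases spread widely, with 9 of 37 rare around medians of -0.49 and -0.43. CDK9, the kinase of transcription elongation, was lowest at -1.63 and -2.12, and CDK16 was highest at 0.62 and 0.44. Checkpoint kinases and DNA damage genes had 4 of 28 rare (medians -0.39 and -0.62). The lowest were the 2 subunits of the Ku heterodimer, which binds broken DNA ends, with XRCC6 at -1.89 and -1.86 and XRCC5 at -1.78 and -1.85, all 4 gRNAs of each being rare in both libraries. XRCC1, a scaffold of single-strand break repair, was highest at 0.25 and 0.24.

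Transport genes were rarer than the median gene but mostly not under the threshold. The nuclear pore and its transport factors had 10 of 38 rare (medians -0.65 and -0.86), from RAN, given above, to AAAS at -0.19 and -0.14. COPI and vesicle transport genes had 11 of 42 rare (medians -0.58 and -0.77), from NSF, the ATPase that recycles fusion complexes, at -1.46 and -2.04 to SEC23A at 0.26 and 0.14. The V-ATPase, the proton pump of lysosomes, had 2 of 20 rare, or 10% against 6.05% of all genes. Its medians were -0.40 and -0.77, from ATP6V0B at -1.20 and -1.05 to ATP6V1C2 at 0.07 and 0.01.

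Mitochondrial genes lay between the cytosolic machinery and the median gene, and many of them lay lower in replicate 2. Mitochondrial ribosomal proteins had medians of -0.40 in replicate 1 and -0.82 in replicate 2, with 4 of 77 rare, close to the 6.05% of all genes, from MRPL43 at -1.23 and -1.76 to MRPS27 at 0.25 and -0.02. Mitochondrial aminoacyl-tRNA synthetases had 1 of 18 rare (medians -0.37 and -0.62), which was IARS2 at -1.59 and -1.74, while HARS2 was highest at 0.09 and -0.06. These classes were thus far from their cytosolic counterparts. Subunits and assembly factors of respiratory complex I had 5 of 44 rare (medians -0.37 and -0.56), from NDUFS5 at -1.62 and -1.69 to NDUFA5 at 0.26 and 0.26. Complexes II to IV had 5 of 44 rare (medians -0.50 and -0.63), from the copper chaperone COX11 at -1.49 and -1.90 to SCO2, which also carries copper to cytochrome oxidase, at 0.47 and 0.38. ATP synthase had 5 of 17 rare (medians -0.67 and -0.74), from ATP5E at -1.75 and -1.95 to the assembly factor ATPAF2 at 0.17 and 0.13.

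Iron-sulfur cluster assembly, which supplies a cofactor to enzymes of the mitochondria, cytosol and nucleus, had 8 of 22 rare and medians of -0.81 and -1.14, but 2 of 22 were at or under -1 in both libraries once the median of neighbouring genes was subtracted. The ferredoxin FDX1L was lowest at -1.68 and -1.74, and CIAPIN1 highest at 0.05 and 0.31. Mitochondrial import and chaperone genes had 7 of 31 rare (medians -0.49 and -0.73), with the chaperonin HSPE1 at -1.76 and -1.98 and TIMM8A at 0.54 and 0.61.

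Metabolic pathways held from 1 to 5 rare members each. In nucleotide synthesis 5 of 28 genes were rare (medians -0.31 and -0.50). CAD, which starts pyrimidine synthesis, was at -2.12 and -1.83, and PRPS1 was at 0.25 and 0.40. In glycolysis 5 of 27 were rare (medians -0.41 and -0.67), from PGAM2, a phosphoglycerate mutase known from muscle, at -1.47 and -1.88 to LDHB, a lactate dehydrogenase subunit, at 0.39 and 0.63. In N-glycosylation 3 of 37 were rare, or 8.11% against 6.05% of all genes (medians -0.43 and -0.69). ALG2 was at -1.10 and -2.04 and ALG3 at 0.50 and 0.66, although both add mannose to the same growing glycan. In mevalonate and sterol synthesis 1 of 30 was rare, the kinase PMVK at -1.15 and -1.03 (medians -0.35 and -0.61). By the mean level FDPS, at -0.94 and -1.45, was lower still but missed the call in replicate 1, and EBP was highest at 0.18 and 0.23. That 1 gene is 3.33% of the list, under the share of all genes. Fatty acid oxidation and peroxisome genes lay at the median of all genes, at -0.24 and -0.19, with 1 of 27 rare (3.70%) and HADH highest at 0.26 and 0.32.

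The 34 housekeeping lists above hold 1124 genes, of which 338 were rare, or 30.1%, against 6.05% of all genes. Those 338 made up 29.2% of all rare genes, so most rare genes belonged to no such list. Without the lists as a guide, genes were also sorted by symbol stem, the letters before the first digit. Of 368 stems with at least 8 genes, the lowest by median over genes of the mean level were RPL at -1.40, PSMB at -1.28 and RPS at -1.26. They are followed by PSMA at -1.16 and by FOXD, a family of forkhead transcription factors with several near-identical copies, also at -1.16. The highest stems were MAGEB at 0.24 and MAGEA at 0.18, families of cancer-testis antigens on chromosome X, and the beta-defensins (DEFB) at 0.18.

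Of 32 adrenergic neuroblastoma genes 8 were rare (25% against 6.05% of all genes). The list as a whole lay nearer to all genes, at medians of -0.33 and -0.40. Besides CCND1 and the receptor kinases ALK and RET, it holds transcription factors and cofactors of the circuit that keeps these cells in their sympathetic identity. The cell cycle gene CCND1, a known target of this circuit, was lowest at -1.63 and -1.87, with gRNAs of 382, 211, 267 and 525 normalized reads in replicate 1 and 314, 232, 178 and 386 in replicate 2. GATA3, a transcription factor of sympathetic neurons, was at -1.69 and -1.67. HAND2, another core factor of the circuit, was at -1.32 and -1.92. MYCN itself was at -1.43 and -1.59, with gRNAs of 387, 295, 345 and 489 reads in replicate 1 and 316, 222, 337 and 505 in replicate 2. No MYCN gRNA reached the olfactory receptor median in either library, and the gene lay below 99% of the olfactory receptor genes, whose lowest 1% ended at -1.40 and -1.39.

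The remaining rare members of the list were MEIS1 (-1.15, -1.18), PHOX2A (-1.14, -1.09) and LDB1 (-1.11, -1.07), a cofactor that joins LIM-domain complexes, along with TBX2 (-1.33, -1.02), which lies on chromosome 17. The other 24 members were not called and included the receptor kinase ALK at -0.10 and -0.05, ISL1 at 0.10 and -0.21, HAND1 at 0.01 and 0.04 and, highest, INSM2 at 0.14 and 0.09. Of 25 genes of the mesenchymal state 0 were rare, against 6.05% of all genes, and the difference from that share was not tested. Their medians were -0.22 and -0.25, like those of all genes, from JUN at -0.83 and -1.10 to NOTCH1 at 0.41 and 0.46. H2AFY, the histone variant that the study's later work addressed, was at -0.47 and -0.46 with gRNAs of 1223, 788, 644 and 0 normalized reads in replicate 1 and 1276, 771, 665 and 0 in replicate 2.

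**Figure D3:**
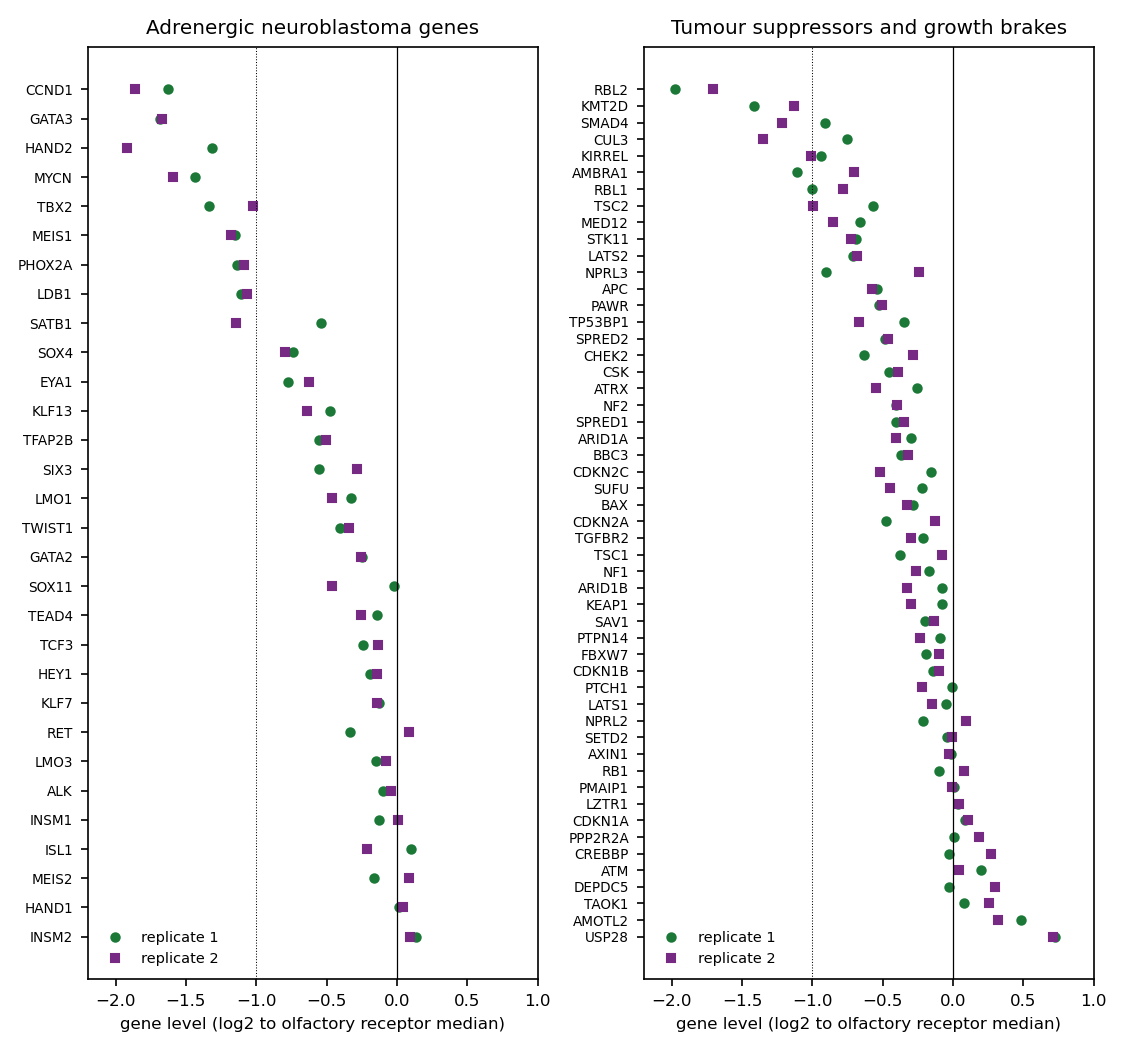
Levels (log2 relative to the olfactory receptor median) of adrenergic neuroblastoma genes (left) and of tumour suppressors and growth brakes (right), a few members of each list left out, in replicate 1 (circles) and replicate 2 (squares) of IMR32 alone, with the dotted line at -1. The 8 rare adrenergic genes from CCND1 to LDB1 lie left of the line in both replicates, and USP28 lies at 0.72 and 0.71 at the lower right.

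Tumour suppressors and growth brakes, whose loss is known to speed the growth of many tumours, did not lie above other genes as a list. The medians of the 54 genes were -0.22 and -0.29, and 2 members reached a level of 0.5 in both libraries, against 1.33% of all genes. Among them was USP28, a deubiquitinase, at 0.72 and 0.71. The gRNAs of USP28 all stood above the olfactory receptor median, with 1624, 1648, 2615 and 1529 normalized reads in replicate 1 and 1545, 1686, 2073 and 1526 in replicate 2. CDKN1A, an inhibitor of cyclin-dependent kinases that halts the cell cycle, was near 0 at 0.09 and 0.11, and the apoptosis effectors BAX (-0.29, -0.33) and BBC3 (-0.37, -0.32) were below it. Against the olfactory receptor genes, of which 95% lay under 0.53 in replicate 1 and 0.54 in replicate 2 and 99% under 0.70 and 0.69, USP28 stood above the 99th percentile but below the highest receptor, OR8B12, at 0.74 and 0.76.

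Of the 54 genes 2 were rare (3.70%), a share below the 6.05% of all genes. RBL2, a relative of the retinoblastoma protein, was at -1.97 and -1.71, with gRNAs of 169, 592, 213 and 296 normalized reads in replicate 1 and 170, 711, 207 and 437 in replicate 2. KMT2D, an enhancer histone methyltransferase, was at -1.41 and -1.13. RB1 itself was at -0.10 and 0.08. The mTORC1 brake NPRL3 differed between the libraries, at -0.90 and -0.24.

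Among signalling and chromatin lists the levels were closer to those of all genes, of which 6.05% were rare. The rare shares were 2.5% for MAPK and PI3K signalling, 11.8% for apoptosis regulators and 18.0% for chromatin regulators. They were 0% for MHC class I and interferon genes and 2.56% for HOX genes. MAPK and PI3K signalling genes had 1 of 40 rare (medians -0.36 and -0.38), which was RPTOR, the mTORC1 scaffold, at -1.47 and -1.96, and ERBB2 was highest at 0.22 and 0.33. Apoptosis regulators had 4 of 34 rare (medians -0.22 and -0.21), from the BCL2 family member BAD at -1.62 and -1.68 to BIRC3 at 0.38 and 0.42. Chromatin regulators had 11 of 61 rare and lower medians, -0.46 and -0.68, from WDR77, the partner of the methyltransferase PRMT5, at -2.26 and -2.37 to SMARCA2 at 0.30 and 0.37. Genes of MHC class I and the interferon response had 0 of 28 rare and medians of -0.11 and -0.02, from PSMB10 at -0.86 and -0.93 to CD274, which encodes PD-L1, at 0.63 and 0.70. HOX genes, which pattern the body axis, had 1 of 39 rare, HOXA9 at -1.11 and -1.01, with medians of -0.50 and -0.46. HOXD11 was lowest by the mean level, at -0.83 and -1.32, and HOXA11 highest at 0.27 and 0.34.

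Families with no known use in neuroblastoma cells stayed close to 0. Medians were 0.05 and 0.06 over 27 taste receptors, -0.02 and 0.03 over 90 keratin-associated proteins, 0.09 and 0.16 over 35 beta-defensins and 0.11 and 0.09 over 17 type I interferons. Genes of T and NK cells were at -0.06 and -0.15 over 28 members. In these 5 families 3 genes of 197 were rare, against 6.05% of all genes. Even so their extremes were wide, with IFNA1 at -1.26 and -1.11, KRTAP5-6 at -1.14 and -1.89, CD8B at -0.89 and -0.97, DEFB118 at -0.81 and -0.64 and TAS1R1 at -0.52 and -0.33. On the high side were KRTAP17-1 at 0.72 and 0.86, TAS2R38 at 0.65 and 0.54, DEFB106B, with 2 gRNAs, at 0.39 and 0.55, IFNE at 0.40 and 0.44, and CD3D at 0.27 and 0.65. Olfactory receptors ran from OR7E24 at -1.80 and -2.36 to OR8B12 at 0.74 and 0.76. A single gene with a level near -1 or 0.5 therefore stood within the range of genes with no known role in these cells.

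The large families followed their own medians. Their rare shares were 1.79% for ZNF genes, 3.29% for solute carriers, 3.03% for protocadherins and 3.33% for cancer-testis families, against 6.05% of all genes. Zinc finger genes with a ZNF symbol lay with the olfactory receptors, at 0.00 and 0.03 over 504 genes with 9 rare, from ZNF813 at -1.39 and -1.77 to ZNF610 at 0.75 and 0.85. Solute carriers lay with all genes, at -0.20 and -0.22 over 365 genes with 12 rare, from SLC38A10 at -1.17 and -2.18 to SLC39A6 at 0.65 and 0.77. Protocadherins, cell adhesion proteins of neurons, were at -0.13 and -0.13 over 66 genes with 2 rare, from PCDHA3 at -1.52 and -1.24 to PCDH1 at 0.76 and 0.93. Multicopy cancer-testis families were at 0.00 and 0.04 over 120 genes with 4 rare, from CT45A6 at -1.74 and -1.61 to CT45A1, with 2 gRNAs, at 0.68 and 0.93.

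The genes most frequent in both libraries came from no list of growth brakes. ZCCHC16, a retrotransposon-derived gene on chromosome X, was highest at 1.04 and 0.95, with gRNAs of 1937, 1568, 2139 and 2244 normalized reads in replicate 1 and 1918, 1643, 2231 and 1905 in replicate 2. SPECC1 was at 0.82 and 1.14 and the pancreatic elastase CELA3B at 0.94 and 0.98. They were followed by RALGAPA2 (0.83, 1.01), ADAMTS15 (0.89, 0.92), TMEM204 (0.80, 0.97), the cardiac coactivator MYOCD (0.84, 0.87), PCDH1, FAM47C (0.73, 0.92), PRND (0.69, 0.96), DCAF12L1 (0.70, 0.93), CACNG8 (0.78, 0.84), XPO7 (0.70, 0.92) and PON2 (0.71, 0.91). Of the 15 highest genes 2 had all 4 gRNAs at or over 0.5 in both libraries. ADAMTS15, PCDH1 and XPO7 each had 1 gRNA at or under -1 in both libraries. Among the 100 highest features of any kind 24 were CON sets, which make up 1.29% of all features, and 42 of 250 CON sets (16.8%) reached 0.5 in both libraries.

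Levels also followed the chromosome on which a gene lies. Of the 19114 genes 18984 were placed on a chromosome and in gene order by their symbol in RefSeq (GRCh38.p14). The files give no positions and name no build. Median levels were lowest on chromosome 1, at -0.45 and -0.48 over 1967 genes, chromosome 17, at -0.43 and -0.46 over 1126, and chromosome 16, at -0.39 and -0.39 over 792. They were highest on chromosome X, at 0.09 and 0.11 over 801 genes, and on chromosome 18, at -0.03 and 0.02 over 261. Rare were 14.6% of the placed genes on chromosome 17 and 10.7% on chromosome 1, against 2.12% on chromosome X.

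Olfactory receptors differed by chromosome as well. The 59 on chromosome 1 had medians of -0.21 and -0.27, and the 12 on chromosome 17 -0.26 and -0.09, while the 162 on chromosome 11 were at 0.10 and 0.10 and the 15 on chromosome 6 at 0.32 and 0.29. Genes outside the housekeeping lists kept the order at the low end, with medians of -0.44 and -0.46 on chromosome 1 and -0.39 and -0.41 on chromosome 17. On chromosomes 1 and 17 together lay 16.3% of the placed genes and 32.8% of the rare genes that could be placed.

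**Figure D4:**
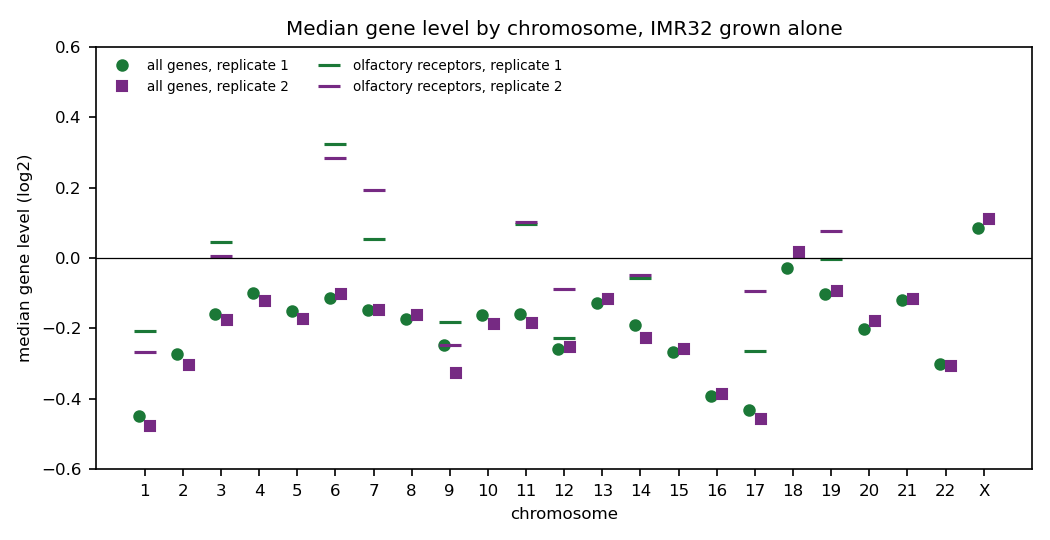
Median gene level (log2 relative to the olfactory receptor median) of each chromosome in replicate 1 (circles) and replicate 2 (squares) of IMR32 alone, with dashes for the olfactory receptor genes of chromosomes that hold at least 10 of them. Chromosomes 1, 16 and 17 are lowest at -0.39 to -0.48, chromosome X is highest at 0.09 and 0.11, and the olfactory receptors of chromosome 1 lie below those of chromosome 11.

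Within chromosomes, low levels came in runs of neighbouring genes. Medians were taken over windows of 15 consecutive genes, 3734 in all, set 5 genes apart so that neighbouring windows share genes. Of the 20 lowest windows 7 lay on chromosome 1 and 13 on chromosome 17, and several were overlapping pieces of 1 region. The lowest, from PPIAL4C to SV2A on chromosome 1, had medians of -1.38 and -1.43 with 13 of 15 genes rare. It holds most of the HIST2 cluster of histone genes, of which 10 of 11 genes were rare (medians -1.39 and -1.61), led by HIST2H3C at -2.02 and -2.49. The 55 genes of the HIST1 clusters, which encode the same histones, had medians of -0.46 and -0.41 with 4 rare, and HIST1H4H was the highest histone gene at 0.17 and 0.14. Several HIST2 genes are near-identical copies of each other, so their gRNAs may share targets, and the part of this in the levels was not tested.

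On chromosome 17 the lowest window ran from EIF4A3 to SLC38A10, with medians of -1.17 and -1.31 and 11 of 15 genes rare. It holds RPTOR and the RNA helicase EIF4A3 (-1.12, -1.27), which are needed in most cells, but also NPTX1, a secreted protein of synapses, at -1.46 and -1.96, SGSH, a lysosomal sulfatase, at -1.62 and -1.32, CHMP6 at -1.63 and -1.43, AATK at -1.23 and -1.27, and CEP131 and SLC38A10, given above. The survival gene BIRC5, also on chromosome 17, was at -2.23 and -1.87. The highest windows lay elsewhere, 9 of the highest 20 on chromosome X.

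After the median of the 50 placed neighbours on either side was subtracted from each gene in each library, 476 genes were at or under -1 in both libraries. Of the 1141 rare genes that could be placed 466 kept the call (40.8%), and 10 genes entered it. After the subtraction the placed genes had medians of -0.0005 and -0.0013, against -0.21 and -0.22 for all genes before, with the threshold still at -1. With scaling to the median of all gRNAs, which uses no positions, 595 genes were rare. Lost calls thus mix a general shift with local differences, and the part of each was not tested. Of the 374 rare genes on chromosomes 1 and 17, 50 kept the call. The large ribosomal subunit kept 31 of its 40 rare members and the small subunit 22 of 26, with medians of -1.24 and -1.31 and of -1.32 and -1.39. The proteasome kept the call for 11 of its 24 rare members and the core spliceosome for 20 of 37. Nucleotide synthesis kept it for 5 of 5 rare genes and checkpoint and damage genes for 4 of 4. COPI and vesicle transport kept it for 1 of 11 rare genes and iron-sulfur cluster assembly for 2 of 8. The APC/C kept 0 of 4, respiratory complex I 0 of 5 and the mitochondrial ribosome 0 of 4. Of the 53 rare cell division genes 24 kept it. Of the adrenergic genes MYCN (-1.43, -1.59), CCND1 (-1.33, -1.40), GATA3 (-1.61, -1.54) and HAND2 (-1.25, -1.83) kept it, and TBX2, at -0.58 and -0.22, MEIS1 (-0.78, -0.76), PHOX2A (-0.85, -0.65) and LDB1 (-0.81, -0.73) did not. A median over 50 neighbours on either side reaches far beyond the short run of rare genes around MYCN described below. The subtraction could not remove a level shared within that run, and the kept call of MYCN does not bear on it. RPTOR was at -0.55 and -0.95 after the subtraction and BIRC5 at -1.31 and -0.94. The copy number of these regions was not measured, and its part in the levels was not tested.

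Around MYCN, which is amplified in this line, rare genes stood side by side with genes that were not. In RefSeq order among the genes of the files came TRIB2 at 0.42 and 0.31, FAM84A at -2.42 and -2.68, NBAS at -1.39 and -1.34, the RNA helicase DDX1 at -1.54 and -2.07, MYCN, and then FAM49A at 0.52 and 0.39. FAM84A and DDX1 had all 4 gRNAs rare in both libraries, and NBAS and MYCN had 3. The 4 rare genes thus formed 1 unbroken run, with genes above 0 on both sides.

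The replicates did not differ evenly across gene classes. Over all genes the median difference of replicate 2 minus replicate 1 was -0.01 in IMR32 alone. It was -0.32 for mitochondrial aminoacyl-tRNA synthetases, -0.27 for mitochondrial ribosomal proteins, -0.27 for the ubiquitin, NEDD8 and SUMO enzymes and -0.24 for the RNA exosome, while it was 0.02 for ZNF genes, 0.00 for olfactory receptors and 0.15 for the CON sets. In the cocultures, with their own DNA and libraries, mitochondrial ribosomal proteins were lower in replicate 2 by medians of -0.20 without and -0.23 with nivolumab, mitochondrial synthetases by -0.31 and -0.33, and the CON sets higher by 0.14 and 0.15. ATP synthase differed more there, by -0.35 and -0.24, than in IMR32 alone, at -0.04, and that contrast was not tested. Of 77 mitochondrial ribosomal proteins 61 were lower in replicate 2 in all 3 conditions, as were 4627 of the 19114 genes.

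A limma fit over all 6 libraries, with condition as a covariate, tested the replicate number. This test was added after the data had been seen. At a Benjamini-Hochberg adjusted p under 0.05 over 19364 features, 1484 of the 19114 genes were lower in replicate 2, or 7.76%, and 547 were higher, or 2.86%. Of the 250 CON sets 34 were higher and 0 lower. Of the mitochondrial ribosomal proteins 45 of 77 were lower and 0 higher, of the mitochondrial synthetases 13 of 18 and 0, of the RNA exosome 8 of 12 and 0, and of the large ribosomal subunit 4 of 47 and 1. Of the olfactory receptors 11 of 374 were lower and 6 higher, and of the MHC class I and interferon genes 0 of 28 in either direction. Omitting either nivolumab library, which leaves the other without a partner, gave 1190 genes in all in place of 2031. The replicate number stands for the screen, with its lymphocyte donor and its ratio of lymphocytes to cancer cells, and which transduction fed which screen is not given in the sources used here. No lymphocytes were added to IMR32 alone, so donor and ratio describe the coculture libraries only. With 1 screen per number, p measures only how steadily the 2 sets of libraries differed. What else differed between the screens cannot be told apart, and the cause of the gap was not tested.

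The genes with the smallest p in that fit were all lower in replicate 2. GNB1L, a WD-repeat protein, was at -0.24 in replicate 1 and -1.59 in replicate 2 of IMR32 alone, and over all libraries the difference was -1.44 (SE 0.0767, limma adjusted p = 2.37e-09). The cocultures of GNB1L were at -0.49 and -0.38 in replicate 1 and at -1.85 and -1.98 in replicate 2, so the 2 sets did not overlap. AASDHPPT, which attaches the phosphopantetheine arm to carrier proteins, was at -0.15 and -1.56 in IMR32 alone (difference -1.26, SE 0.0761, limma adjusted p = 1.02e-08). HSCB, a co-chaperone of iron-sulfur cluster transfer, was at -0.28 and -1.32 (limma adjusted p = 2.49e-07) and EED, a core subunit of the Polycomb repressive complex, at 0.18 and -0.75 (limma adjusted p = 1.49e-07). None of these 4 genes was rare in both libraries of IMR32 alone, since all 4 were above -1 in replicate 1, and EED in replicate 2 as well. Of the other genes with a p under that of HSCB, TPT1 (-1.26, -2.37), N6AMT1 (-1.09, -2.14) and PPP1R11 (-1.04, -1.89) were rare in both. TRMT61A, NDNL2 and UXT were not. In the opposite direction, NPRL3 differed by 0.55 (SE 0.0743, limma adjusted p = 6.96e-05).

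**Figure D5:**
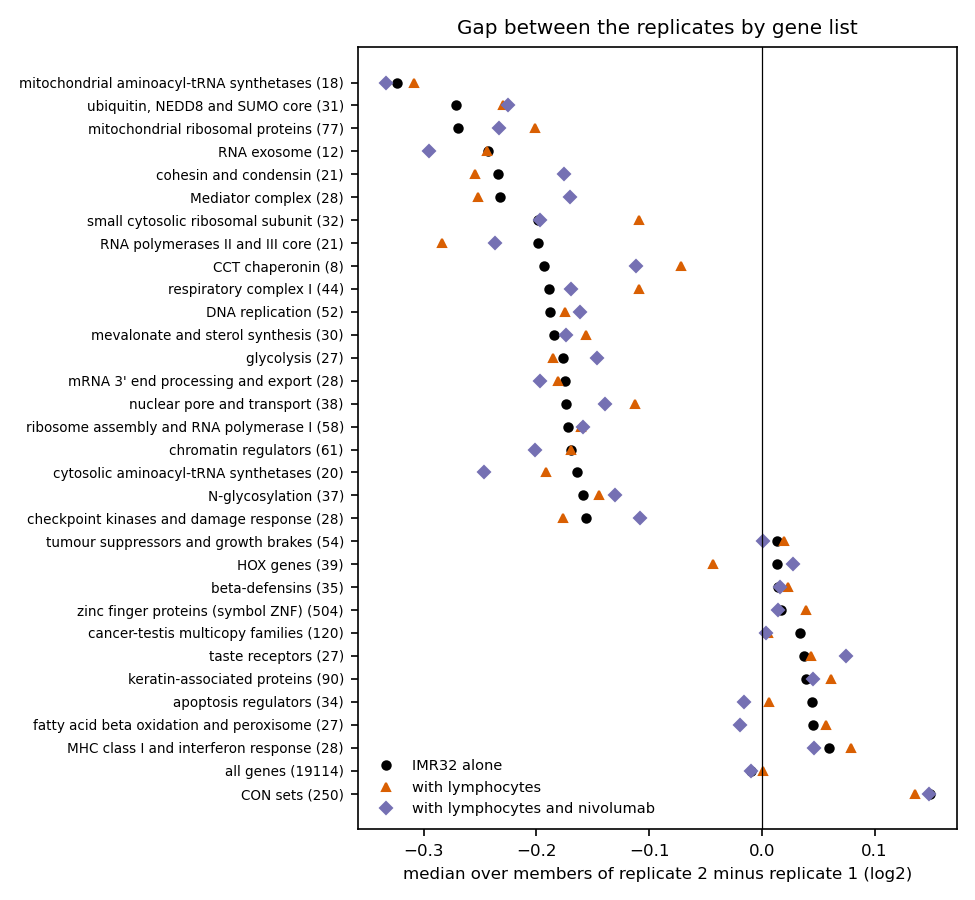
Median over the members of a gene list of the level in replicate 2 minus that in replicate 1 (log2), for IMR32 alone (circles), coculture (triangles) and coculture with nivolumab (diamonds), showing the 20 lists with the lowest and the 10 with the highest difference in IMR32 alone, then all genes and the CON sets. Mitochondrial synthetases lie at -0.31 to -0.33 in all 3 conditions, all genes at about 0 and the CON sets at 0.14 to 0.15.

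Set against the cocultures, the landscape of IMR32 alone was not distinguishable gene by gene. The limma contrast of IMR32 alone minus the mean of both coculture conditions called 0 of 19364 features (0%) at an adjusted p under 0.05, and 274 features (1.42%) had an unadjusted p under 0.05. With the replicate number as a block it also called 0, and 1029 features (5.31%) had an unadjusted p under 0.05. A p above the threshold does not show that the landscapes were the same. Of the 1157 genes rare in IMR32 alone 879 (76.0%) were at or under -1 in all 4 coculture libraries too, and these were 89.1% of the 987 genes that were.

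The 5 genes with the smallest p in the fit without the block, which leaves out the pairing by replicate number, did not pass the correction. YRDC, an enzyme of tRNA modification, was at -1.57 and -1.41 in IMR32 alone, higher than in every coculture library, with a difference of 0.49 (SE 0.0958, limma adjusted p = 1.00). With the replicate block the same difference had a limma adjusted p of 0.118. CANT1 and ATG4C were higher in IMR32 alone by 0.38 and 0.40, and COL4A2 and HIST2H2AB lower, with differences of -0.36 and -0.36, each at a limma adjusted p of 1.00 in the fit without the block. With the block the smallest limma adjusted p of any feature was 0.118.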

How the data were processed

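Read values per gRNA were analysed for 6 libraries, 2 each of IMR32 alone, coculture and coculture with nivolumab. The deposited values are a signal of reads per gRNA that the authors normalized to the same total in every library. The methods name MAGeCK, without a version, and a library with molecular identifiers, and whether identical identifiers were collapsed is not given in the sources used here. Intervals from reads therefore cover counting error only. Values were whole multiples of 1 step per library, which set the depths given above.

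Levels were computed with a pseudocount of 1, relative to the median gRNA against olfactory receptors, as the median over gRNAs, so that a level understates how rare a gene with few reads was. Calls of rare or frequent genes need both libraries and carry no test. The gene lists and the members named were chosen with earlier results of these data known. Named are the 15 lowest and 15 highest genes with 3 or more gRNAs (1 of the highest on a sex chromosome is left out), the lowest and highest member of each list, the rare or frequent adrenergic and tumour suppressor genes, MYCN, H2AFY, the 5 smallest p in the comparison with coculture and the 3 lowest and highest symbol stems. Other genes were named after their values were seen, and a few genes that this rule names are not reported here. Conditions were compared by limma 3.58.1 on levels (R 4.3.3, two-sided, Benjamini-Hochberg over 19364 features). The fit was tried on simulated levels drawn without a replicate effect shared between conditions, so that trial does not cover the pairing. Replicate numbers paired the libraries: the differences of replicate 2 minus replicate 1 correlated between conditions at 0.485 to 0.492 over genes, where the number marks the screen and its lymphocyte donor. Levels came from pandas 2.3.3 under Python 3.11.15, and figures from matplotlib 3.10.9. Models for whole read counts were not run.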

Additional observations from a re-analysis of the deposited data

How the results depend on the processing

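The count of 1157 rare genes moved with the scale and the threshold. It was 595 with scaling to the median of all gRNAs, which raises every level by 0.21 and 0.23 in replicates 1 and 2, and 2481 with scaling to the CON gRNAs, an alternative chosen after seeing the data. With the second lowest gRNA as the gene level it was 2236, with the 1st percentile of olfactory receptor genes as the threshold 334, and with a threshold of 0.5 in size 4383. In 1 library alone it was 1365 to 1835. Also chosen after seeing the data, subtraction of the local median left 476 and leaving out chromosomes 1 and 17 left 767. The count of genes at or over 1, 0 in both libraries, became 8 with scaling to all gRNAs, 11 after subtraction of the local median, 11 with the second highest gRNA, 37 at the 99th percentile of olfactory receptor genes, 255 at a threshold of 0.5, and 1 to 2 in 1 library alone. A pseudocount of 50, the mean over gRNAs, a filter on low gRNAs and genes with 4 gRNAs only kept the rare count within 931 to 1598. Between 40 and 42 of 53 lists lay below the median of all genes under every alternative tried. The comparison with coculture called 0 features under every alternative, the replicate block included (smallest limma adjusted p 0.118, against 1.00 without it). Omitting a library of IMR32 alone leaves a lone sample, assumed to vary like the other groups. The gap between replicates called 1190 to 1638 genes when 1 library was left out, the lowest without a nivolumab library, against 2031. Whole reads could be taken from the values, but count models (edgeR, DESeq2) were not run on them. At this depth counting error is small beside the spread between replicates.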

Other observations

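The genes below were named after their values had been seen. Among the survival proteins of the BCL2 family, MCL1 was at -1.50 and -1.57 and BCL2L1 at -1.40 and -1.38, both rare, whereas BCL2 was at -0.77 and -0.37.

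Of the 82 genes with all 4 gRNAs rare in both libraries, 31 belonged to no list. Some have known roles in every cell, such as HSPA5, the main chaperone of the endoplasmic reticulum, at -2.0 and -1.94, KRR1, which acts in ribosome assembly, at -1.97 and -2.0, DPH3, which acts in diphthamide synthesis, at -1.57 and -2.23, and TERF2, which protects telomeres, at -1.31 and -1.48. Others carry symbols of multicopy families, among them DUX4 at -2.18 and -2.02, WASH1 at -1.90 and -2.22, USP17L22 at -2.02 and -1.93, FOXD4L6 at -1.52 and -1.97 and NPIPB3 at -1.30 and -1.44. GKN2, a gene known from the stomach, was at -2.08 and -1.98, and how many sites its gRNAs match was not tested. USP32, at -2.02 and -2.47, and CCDC137, at -1.90 and -1.99, lie on chromosome 17. IGF2BP1, an RNA-binding protein on chromosome 17, was at -1.53 and -2.09 with 3 gRNAs rare.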
